A study of Mus musculus with 6 samples.

Results

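Complement transcripts were measured in mTECs, a mouse renal tubular epithelial cell line, through the 9 genes C3, C4b, Cfb, C1ra, C1s1, Serping1, Cd55, Cd59a and Cfi. These were the rows of the deposited table whose mouse symbol was on that list, 9 of 22442 genes, and each symbol matched 1 row. All 6 samples received LPS (lipopolysaccharide from bacteria) for 24 h, at 20 μg/ml, and no sample without LPS was part of the comparison. Before LPS, the cells of the 3 libraries labelled LPS were transfected with a negative control and those of the 3 labelled LPSKD with an RNA meant to silence Stat3, and both names are used here as labels only. The sample labels call this RNA an siRNA and the cells magnetically sorted, whereas the methods of the study list a short hairpin RNA for mouse Stat3 and describe an immortalised line. The labels do not state whether replicates came from separate cultures, so p-values measure only the spread between these libraries.

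Complement is a cascade of proteases, binding proteins and receptors that marks microbes and damaged cells. The classical and lectin routes start with recognition proteins and the proteases bound to them, and the alternative route amplifies the response, all of them through cleavage of C3. The liver makes most circulating complement, but renal tubular cells also produce C3 and other components locally, and host cells carry regulators on their surface that stop the cascade there.

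Stat3, the targeted gene (ENSMUSG00000004040), did not pass the test between the groups. FPKM stands for fragments per kilobase, scaled to the fragments of the library. The length behind it lay within 10 bases of the coding length in 97.73% of genes above 0. For Stat3, FPKM was 34.6, 31.4 and 35.2 in the LPS libraries and 30.8, 35.2 and 34.3 in the LPSKD libraries, and the groups overlapped. The log2 fold change was −0.01 ± 0.07 (SE; limma, adjusted p = 0.944), so that every direction given here is between libraries by their labels. Library totals worked out from the FPKM values lay between 24084827 and 25422171 fragments. Of 14 tubule markers, Pax8, Cdh16, Epcam and Krt8 were abundant, whereas the segment genes Slc34a1, Umod and Aqp2 were at 0 in all 6 libraries and Lrp2 and Slc12a1 had at most 3 fragments. Of the 9 tubule markers tested, Pax2, Pax8, Cdh16 and Aqp1 were higher in the LPSKD libraries and Krt18 was lower, with adjusted p under 0.05 in limma, beside 1.57% of all genes tested called higher and 1.66% called lower.

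Markers of other cell types were also present. All 6 hepatocyte markers were above 0 in every library, and their summed FPKM was 319.5, 624.2 and 244.7 in the LPS libraries and 319.9, 313.8 and 324.6 in the LPSKD libraries. Alb, which encodes albumin, alone had 159.9, 339.1 and 149.5 FPKM in the former and 182.4, 174.5 and 162.9 in the latter. LPS replicate 2 therefore stood apart, with 1.95 times the median of this sum over the 6 libraries. LPS replicate 3 had the lowest sum, at 0.765 times that median. No hepatocyte marker passed the test between the groups, with a median log2 fold change of −0.18. Summed FPKM was between 82.6 and 99.4 for 11 macrophage markers, between 23.9 and 46.4 for 8 fibroblast markers and between 2.81 and 5.45 for 6 endothelial markers. Of these, Csf1r, a macrophage growth factor receptor, was higher in the LPSKD libraries (adjusted p = 0.0208 from limma) and no other passed. In bulk RNA, fewer cells of a type and less RNA per cell cannot be told apart.

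Most of the members' summed level was that of C3, the protein on which all routes of activation meet. C3 ranked 1517 among all genes by mean FPKM and made up between 76.0% and 83.3% of the summed FPKM of the 9 genes in a library. Cd59a came next at a 10.1-fold lower level, and Cfb and Cd55 had at most 7 and 12 fragments in a library. The level of Cfb is uncertain, because 94.3% of its coding bases are also those of another annotated gene. None of the 7 members that reached the test between the groups passed it (limma), against 3.23% of all genes tested. In each of the 9 genes the groups overlapped, whereas they did not in 23.8% of all genes tested.

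C3 (ENSMUSG00000024164) is on the minus strand of chromosome 17 (GRCm38, 57203970 to 57228136). The 250 bases before its start in RefSeq (GRCm38.p6, chr17:57228137-57228386, minus strand) are shown because C3 was the only abundant member, with capitals marking a match to TTGCNNAA, the core bound by C/EBP factors.

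C3: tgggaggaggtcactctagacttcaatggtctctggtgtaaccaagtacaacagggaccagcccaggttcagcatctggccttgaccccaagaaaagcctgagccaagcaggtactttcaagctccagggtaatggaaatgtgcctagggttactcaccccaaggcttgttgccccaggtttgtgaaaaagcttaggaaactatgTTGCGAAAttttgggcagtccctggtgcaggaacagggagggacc

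Cd59a (ENSMUSG00000032679) is on the plus strand of chromosome 2 (GRCm38, 104095801 to 104115354). The same stretch before its start (chr2:104095551-104095800, plus strand) is shown for the most abundant regulator among the members, with capitals marking a match to the interferon-stimulated response element (ISRE).

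Cd59a: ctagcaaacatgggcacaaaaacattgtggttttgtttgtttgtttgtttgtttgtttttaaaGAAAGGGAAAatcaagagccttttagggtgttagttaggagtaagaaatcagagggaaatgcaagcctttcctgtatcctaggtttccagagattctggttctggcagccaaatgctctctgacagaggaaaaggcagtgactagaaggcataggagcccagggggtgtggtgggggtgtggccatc

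Promoters of 5 of the 9 genes were in the RefSeq table (C3, Cd59a, Cd55, C1ra and C1s1), and both strands were searched from 250 bases before to 50 after the start. The match in C3 lies 45 to 38 bases before its start, and TTGCNNAA occurs in 10.8% of all 32851 promoters of this length. The match in Cd59a lies 187 to 178 bases before its start, and this ISRE pattern occurs in 3.44% of promoters. C1ra had a match to TTCNNNGAA, the motif of STAT factors, read on both strands 32 to 40 bases after its start, which 8.3% of promoters contain. C1ra and 1 of the 2 C1s1 promoters also had a TTGCNNAA match. The kappa B motif, found in 0.41% of promoters, was in none of these windows. Such matches describe the letters of these windows only.

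The alternative route and the central component were represented by C3 and Cfb. C3 had 91.9, 100.2 and 92.3 FPKM in the LPS libraries and 99.3, 91.2 and 96.2 in the LPSKD libraries, from 10956 to 12444 fragments. The highest and the lowest value each fell in a different group, and the spread over all 6 libraries was 4.16% of the mean (coefficient of variation). The mean was 94.8 ± 4.69 against 95.6 ± 4.10 (SD, n = 3 each), which gave a log2 fold change of 0.01 ± 0.05 (SE; limma, adjusted p = 0.933). Its 95% interval from −0.10 to 0.13 corresponds to a change between −6.85% and 9.14%. C3 was thus the member whose difference was measured most closely. The 5 genes most like C3 over the 6 libraries by Pearson r on log2(FPKM + 0.1) were Epc1 (0.991), Rab17 (0.980), Tnip1 (0.980), Mmd (0.978) and Tmem258 (0.967), as a description of libraries in which 58 of 11722 genes had r over 0.9.

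Cfb encodes factor B, the protease of the alternative route, and lies on chromosome 17 from 34856374 to 34862518. It had 2, 7 and 6 fragments in the LPS libraries and 1, 2 and 4 in the LPSKD libraries, at most 0.119 FPKM. From so few fragments a difference was not detectable (adjusted p = 0.591 from limma on all 16837 genes above 0). Of the 2363 coding bases of Cfb, 94.3% are also coding bases of Gm20547, an annotated gene on the same strand, which was listed at 0 in all 6 libraries. How fragments that lie in both genes were counted is not given in the sources used here, so that the level of Cfb is uncertain.

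The proteases and the substrate of the classical route were C1ra, C1s1 and C4b. C1ra and C1s1 encode the proteases of the C1 complex and lie near each other on chromosome 6, from 124512405 to 124523443 and from 124530345 to 124542359. C1ra had 1.19, 2.14 and 1.5 FPKM in the LPS libraries and 1.06, 0.841 and 1.54 in the LPSKD libraries. C1s1 had 3.24, 5.06 and 4.05 FPKM against 2.33, 3.45 and 3.87. For both genes the highest value was that of LPS replicate 2, and the other values of the groups were interleaved. Their log2 fold changes were −0.46 ± 0.30 (SE) and −0.35 ± 0.23 (SE), with adjusted p of 0.488 and 0.472 from limma. C1ra moved to −0.25 without LPS replicate 2 and −0.28 without LPSKD replicate 2, and C1s1 to −0.20 without LPS replicate 2 and −0.14 without LPSKD replicate 1.

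C4b encodes C4, which C1s cleaves, and lies on chromosome 17 from 34728380 to 34743882. It had 2.26, 4.51 and 2.64 FPKM in the LPS libraries and 1.85, 2.03 and 2.28 in the LPSKD libraries, from 241 to 586 fragments. LPS replicate 2 again stood above the rest, and the lowest of its group, at 2.26, lay just under the highest of the other. The means were 3.14 ± 1.20 and 2.05 ± 0.218 (SD, n = 3 each), and the log2 fold change was −0.53 with a 95% interval from −1.11 to 0.05 (adjusted p = 0.325 from limma). The exact permutation test over the 20 label assignments gave p = 0.2, where 0.1 is the smallest it can give. C4b was the only tested member with an unadjusted p under 0.05 in any fit, in voom on recovered fragments and without LPS replicate 1, with adjusted p of 0.17 and 0.183. Without LPS replicate 2, its log2 fold change was −0.25 (adjusted p = 0.582).

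These genes share sequence with close copies, and the counting of such fragments is not given in the sources used here. Of the 31-base stretches in their coding sequence, 73.8% for C1ra, 59.1% for C1s1 and 49.1% for C4b also occur in a transcript of another gene, mainly C1rb, C1s2 and C4a. C1rb had at most 0.152 FPKM and C1s2 at most 0.444, and no row of the table matched C4a. The levels of C1ra, C1s1 and C4b are therefore uncertain.

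The soluble regulators were Serping1, the inhibitor of C1r and C1s, and Cfi, the protease that inactivates C3b and C4b. Serping1 (chromosome 2, 84765387 to 84775444) had 3.43, 5.82 and 2.82 FPKM in the LPS libraries and 3.39, 4.2 and 4.94 in the LPSKD libraries. Both the lowest and the highest value belonged to LPS libraries. The log2 fold change was 0.10 ± 0.26 (SE; limma, adjusted p = 0.884), with a 95% interval from −0.49 to 0.70.

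Cfi (chromosome 3, 129835884 to 129875332) had 1.24, 3.51 and 1.36 FPKM in the LPS libraries and 1.90, 1.28 and 1.28 in the LPSKD libraries. A single library, LPS replicate 2, had 2.73 times the median of the other 5. The log2 fold change of −0.29 ± 0.38 (SE; limma, adjusted p = 0.755) became 0.16 without that library (adjusted p = 0.813). Neither gene has a 31-base coding stretch in common with another gene.

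The membrane regulators were Cd55, which speeds the decay of the enzymes that cleave C3, and Cd59a, which blocks the membrane attack complex. Cd59a had 8.69, 10.3 and 10.3 FPKM in the LPS libraries and 9.09, 8.08 and 9.89 in the LPSKD libraries, from 72 to 95 fragments on its short coding sequence of 369 bases. The spread over the 6 libraries of 9.77% was about that expected from counting alone (10.8%). The log2 fold change was −0.11 ± 0.11 (SE; limma, adjusted p = 0.652), with a 95% interval from −0.36 to 0.13. Only 5.0% of its 31-base coding stretches occur elsewhere, in Cd59b, which had at most 3 fragments.

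Cd55 (chromosome 1, 130439027 to 130462744) had 5, 7 and 0 fragments in the LPS libraries and 12, 5 and 9 in the LPSKD libraries, or at most 0.325 FPKM. The library at 0 allows a level of up to 0.0831 FPKM (3 fragments, for counting error only). Its log2 fold change of 0.78 had a 95% interval from −0.26 to 1.82 and was not past the threshold (adjusted p = 0.504 from limma on all 16837 genes above 0). The value was 0.32 without LPS replicate 3, the library at 0, and 0.16 with a pseudocount of 1 and 1.81 with one of 0.01. Of its 31-base coding stretches, 35.2% occur in another gene, mainly Cd55b, which was at 0 in all libraries.

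**Figure D1:**
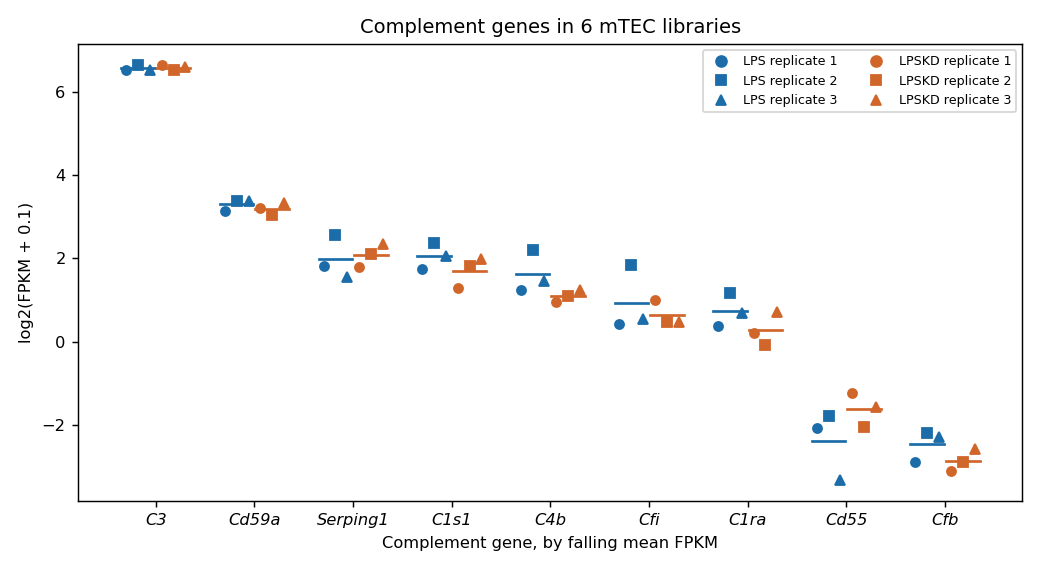
Level of each complement gene in each library as log2(FPKM + 0.1), with blue symbols for LPS libraries, orange for LPSKD, symbol shapes for replicates 1 to 3 and bars for group means. C3 lies far above the others with almost no spread, Cd55 and Cfb lie at the bottom, and the groups overlap in each of the 9 genes. Among all genes tested, 23.8% had groups that did not overlap. The level of Cfb is uncertain because of the sequence it shares with Gm20547.

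In order of mean FPKM the genes ran C3, Cd59a, Serping1, C1s1, C4b, Cfi, C1ra, Cd55 and Cfb. C3 lay 10.1-fold above Cd59a and Cd59a 2.29-fold above Serping1, with ranges over the 6 libraries that did not meet. The ranges of Serping1, C1s1, C4b, Cfi and C1ra overlapped between neighbours, and this order was kept in 4 to 6 of the 6 libraries. C1ra lay 8.02-fold above Cd55 with ranges apart, and those of Cd55 and Cfb overlapped. The levels of C1s1, C4b, C1ra and Cfb are uncertain because of shared sequence, and so are their places in this order.

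The comparison of the LPSKD libraries with those labelled LPS asked whether Stat3 silencing changed transcript levels in LPS-treated tubular cells. Of the 9 genes, 7 reached the mean FPKM of 0.5 required for the test and 2, Cfb and Cd55, did not. None of the 7 passed (limma, adjusted p under 0.05), against 3.23% of the 11723 genes tested (1.66% lower and 1.57% higher in the LPSKD libraries), and none had an unadjusted p under 0.05, against 17.6%. With voom on recovered fragments 0 of 7 passed and 1 had an unadjusted p under 0.05, against 5.1% and 18.5% of all genes. The groups did not overlap in 0 of the 7, against 23.8% of all genes tested. The median log2 fold change of the 7 was −0.29, with 5 below 0 and 2 above, beside a median of −0.0076 over all genes tested. This median was −0.072 without LPS replicate 2, with 4 below 0 and 3 above, and −0.14 and −0.51 without LPSKD replicate 1 and LPS replicate 1, each with 6 below and 1 above. Without LPS replicate 3 it was −0.354, with 7 below and 0 above. It was −0.205 without LPSKD replicate 2 (5 below, 2 above) and −0.204 without LPSKD replicate 3 (6 below, 1 above). The intervals were narrow for C3 and Cd59a and reached past a log2 change of 1 in size for C4b, C1ra and Cfi, so that a fall of that size lay within the intervals of these 3 genes.

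**Figure D2:**
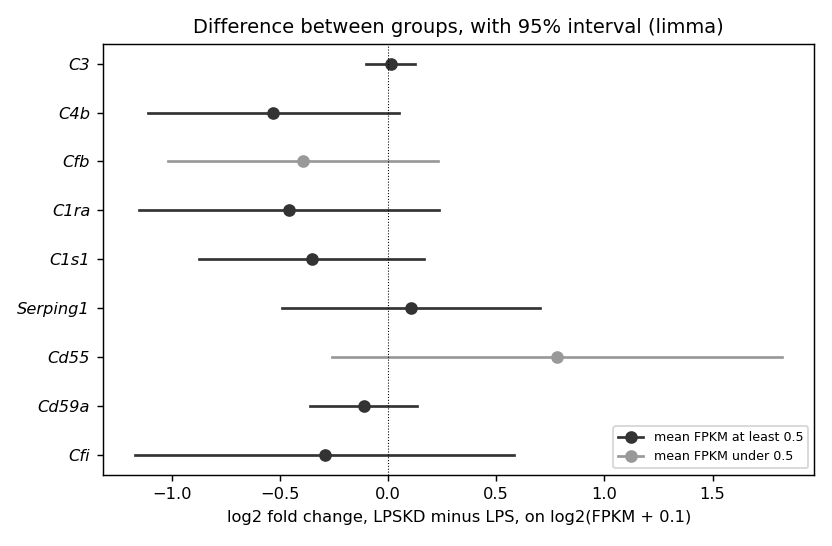
log2 fold change of each complement gene, LPSKD minus LPS on log2(FPKM + 0.1), as points with 95% intervals from limma, in grey for the 2 genes under a mean FPKM of 0.5. All 9 intervals include 0, and those of C3 and Cd59a are the shortest.

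LPS replicate 2 held the highest value of 8 of the 9 genes, Cd55 being the exception, and of all 7 tested, against 20.7% of all genes tested. Its ratio to the median of the other 5 libraries was 1.09 for C3 and 1.13 for Cd59a, and then 1.47 for C1s1, 1.70 for Serping1, 1.79 for C1ra, 1.99 for C4b and 2.73 for Cfi. For 4 of the 7 it was at least 1.5, against 4.8% of all genes tested. For the 6 hepatocyte markers the same ratio was between 1.94 and 3.56. It was between 0.658 and 1.10 for the tubule markers tested and between 0.673 and 1.36 for the macrophage markers, and at most 1.08 for the fibroblast and 0.645 for the endothelial markers. The part of the hepatocyte transcripts in the levels of these 7 genes, C3 and Cd59a included, was not tested. With this library left out, log2 fold changes were 0.40 for Serping1, 0.05 for C3 and −0.07 for Cd59a, with adjusted p from 0.361 to 0.818 over the 7 genes (limma).

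**Figure D3:**
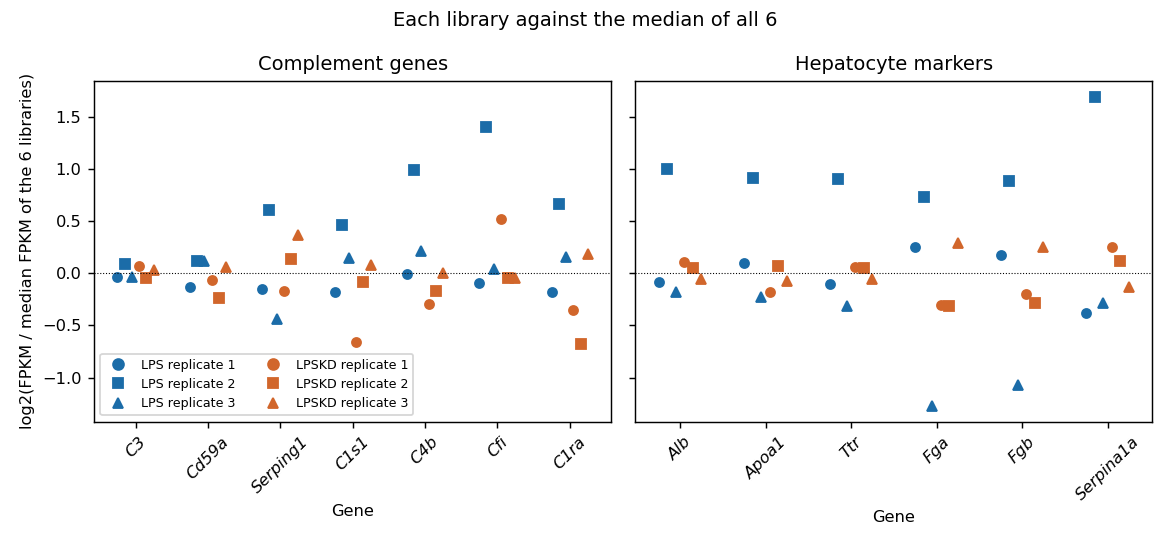
log2 ratio of each library to the median of the 6 libraries for the 7 tested complement genes (left) and 6 hepatocyte markers (right), with colours for groups and shapes for replicates. LPS replicate 2 is highest in every gene of both panels, with a small lead in C3 and Cd59a.

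A wider list of 56 complement genes put the members beside the rest of the system. Of these, 55 were in the table, 3 of them (Fcnb, Cd55b and Csmd1) at 0 throughout, and 35 reached the test. None passed (limma) and 2 had an unadjusted p under 0.05, against 3.23% and 17.6% of all genes tested. With voom the counts were 0 and 3, against 5.1% and 18.5%. Their median log2 fold change was −0.14, with 25 below 0 and 10 above. Of the 35, 3 had groups that did not overlap with lower values in the LPSKD libraries (C8a, Itgb2 and C1qbp) and 2 with higher values (Clu and Susd4), beside 13.2% and 10.6% of all genes. For C8a the nearest values were 1.647 FPKM in LPS replicate 1 and 1.641 in LPSKD replicate 1, from 73 fragments in each.

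Recognition proteins of the classical route had higher mean FPKM, a level per length, than C1ra and C1s1. Since the levels of C1ra and C1s1 are uncertain because of shared sequence, so is this comparison. C1qa, C1qb and C1qc, which form C1q, had 7.15 ± 0.451, 7.26 ± 1.08 and 6.03 ± 0.661 FPKM in the LPS libraries. They had 6.67 ± 1.36, 6.02 ± 1.58 and 5.52 ± 0.820 in the LPSKD libraries (SD, n = 3 each), with adjusted p from 0.509 to 0.751 (limma). The 3 C1q genes are also on the list of 11 macrophage markers. Of the other 8, Csf1r (22.0 to 33.8 FPKM), Lyz2 (17.3 to 27.3) and Cd68 (9.64 to 15.0) lay above the C1q genes, and Ptprc, Adgre1, Mrc1, Tyrobp and Cx3cr1 lay between 0.37 and 2.11 FPKM. The part of macrophage transcripts in the C1q levels was not tested. Of 11 initiators tested, members included, the median log2 fold change was −0.29.

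The terminal components, which build the membrane attack complex, were low. Of 7 genes 6 were tested, with means between 0.53 and 3.63 FPKM in a group, and C7 had at most 1 fragment. In all 6 tested, Hc, C6, C8a, C8b, C8g and C9, LPS replicate 2 was highest, at 1.52 to 2.83 times the median of the others. Their median log2 fold change of −0.50 stands beside that library's hepatocyte transcripts, whose part was not tested. C9 had a log2 fold change of 0.23 (adjusted p = 0.815) and of 0.75 without that library (adjusted p = 0.0602 from limma).

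Among the 8 soluble regulators, Clu and Vtn, which bind terminal complexes, were the most abundant. Clu had 27.8, 31.2 and 26.6 FPKM in the LPS libraries and 36.3, 31.4 and 33.5 in the LPSKD libraries, so that the groups did not overlap. Its log2 fold change of 0.24 ± 0.08 (SE) had an unadjusted p of 0.0133 and an adjusted p of 0.155 (limma). Vtn had 9.60, 16.0 and 7.04 FPKM against 8.71, 8.39 and 8.72 (adjusted p = 0.660). LPS replicate 2 was highest in 7 of these 8 genes and at least 1.5 times the median of the others in the same number, with Clu the exception at 0.99.

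Of the membrane regulators, Cr1l (Crry), the rodent inhibitor of the enzymes that cleave C3, exceeded Cd59a and Cd55. Cr1l had 29.9, 34.9 and 32.9 FPKM in the LPS libraries and 30.4, 31.9 and 30.7 in the LPSKD libraries (log2 fold change −0.07, adjusted p = 0.642 from limma). Susd4 had 4.53, 4.07 and 5.59 FPKM against 5.99, 5.76 and 6.28, with a log2 fold change of 0.35 and an adjusted p of 0.230. Of 10 genes listed as receptors, C1qbp (198.1 ± 7.03 against 187.7 ± 3.74 FPKM), Cd93 (26.4 ± 1.3 against 27.1 ± 0.17) and Itgb2 (18.5 ± 0.668 against 16.8 ± 0.860) were abundant (SD, n = 3 each), with adjusted p of 0.340, 0.790 and 0.321. C3ar1, the receptor of C3a, had 20 to 31 fragments per library and C5ar1, that of C5a, 7 to 16. The rest of the listed receptor genes were low, with 11 to 29 fragments for Itgax and at most 5 for Vsig4. Itgam had at most 4 fragments, and Cr2 and C5ar2 at most 1.

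**Figure D4:**
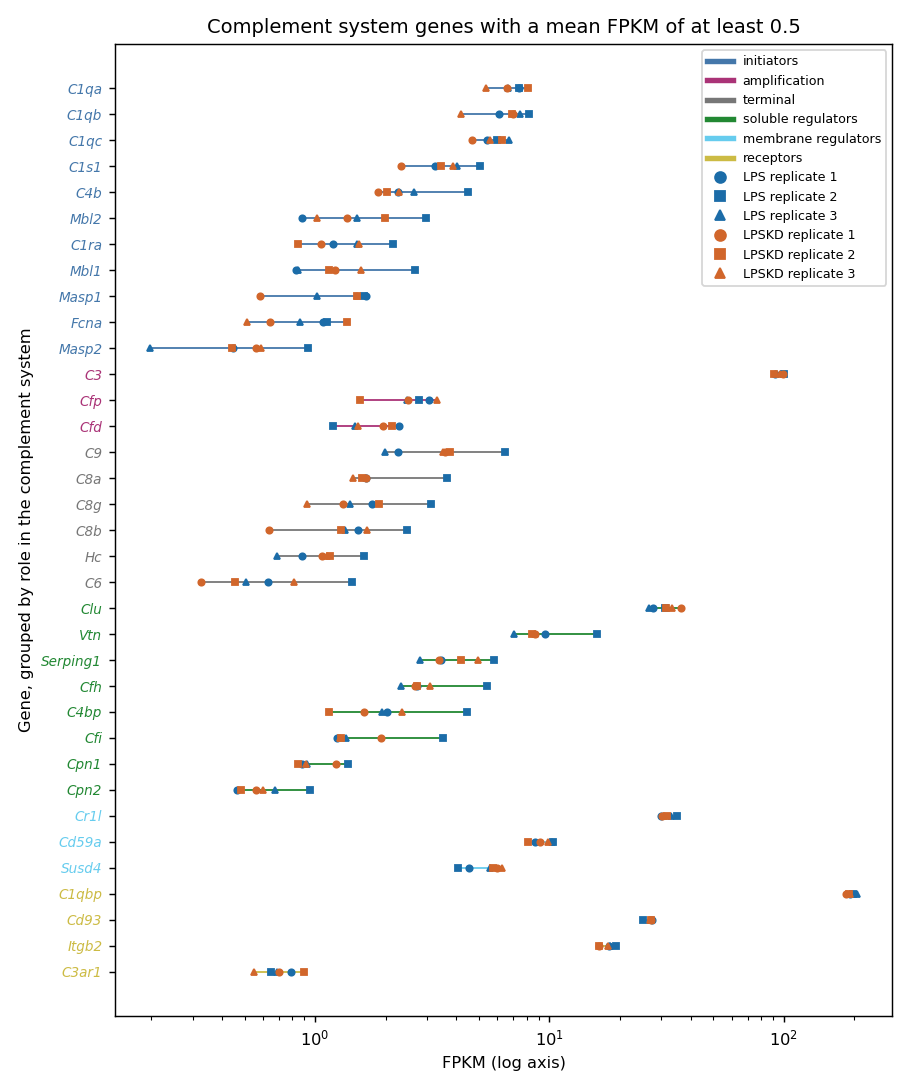
FPKM on a log axis of the 35 complement genes with a mean of at least 0.5, grouped and coloured by role, with 1 symbol per library and a line over the range. C1qbp and C3 lie far to the right, and LPS replicate 2 (blue squares) is the right-hand end for the 6 terminal components and 7 of the 8 soluble regulators.

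Transcription factors known to act on complement promoters differed in how they behaved between the groups. Irf9, which carries interferon signals to the nucleus, had a mean of 21.2 ± 0.422 FPKM in the LPS and 5.48 ± 0.883 in the LPSKD libraries (SD, n = 3 each). Irf9 was thus lower by label, at −1.94 on the log2 scale (limma, adjusted p = 6.5e-05), beside 1.66% of all genes tested called lower. Stat2, which acts with Irf9, had a log2 fold change of −0.52 (limma, adjusted p = 0.0131). The NF-κB genes Nfkb1, Nfkb2, Rela and Relb had log2 fold changes of 0.16, 0.10, 0.00067 and 0.18, and Cebpb, Cebpd and Irf1 of −0.09, −0.17 and −0.19, and none of these 7 passed. The groups did not overlap for Irf9 and Stat2, lower in the LPSKD libraries, and for Nfkb1, Nfkb2 and Relb, higher there. Among all genes tested, 13.2% did not overlap with lower values and 10.6% with higher values.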

How the data were processed

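The authors deposited 1 table of FPKM values for 22442 genes, with 1 value per gene and library and replicates not pooled. The submitters' processing notes name HISAT2 2.0, StringTie 1.3.0 and Bowtie 0.12.2 and the builds mm8 and GRCh38.p13, with no role for any; gene models, counting rule and filters are not given in the sources used here. Identifiers were matched to GENCODE M21 (GRCm38), which gave 22399 symbols. Whole fragments were recovered from FPKM, coding length and library total for 99.99% of 16837 genes above 0 (tolerance 0.0001 fragments, in proportion to the value for the most abundant genes).

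Groups were compared with limma 3.58.1 (R 4.3.3; trend, no covariate, Benjamini-Hochberg) on log2(FPKM + 0.1), keeping those whose mean FPKM reached 0.5, and genes below it from the fit of all genes above 0. Fold changes on this scale understate low genes. Exact permutation tests were two-sided. Alternatives were pseudocounts, filters, scaling, eBayes without trend, a replicate block, voom and the omission of each library. The members and all gene lists were chosen with earlier results of these data known. Named were all members, wider-list genes past the threshold or at a mean FPKM of 5 or more, close copies, the transcription factors (a listed one is not reported here) and the 5 genes most like C3, and other genes were named after their values were seen. Figures were drawn with matplotlib 3.10.9.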

Additional observations from a re-analysis of the deposited data

How the results depend on the processing

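Over 16 alternatives, the number of complement members past the threshold stayed at 0, as did that of the wider complement list, also with each library left out (0 to 0). The count over all genes moved from 379 to 140 without the trend in eBayes, 213 with the replicate block and 598 with voom, and lay between 158 and 356 with 1 library left out, with 158 without LPS replicate 3 and 178, 192 and 168 without LPSKD replicates 1, 2 and 3. The cause was not tested. Of 160 fold changes of the 9 members and Stat3 under the alternatives, 150 kept their sign, 10 changed it and 0 passed the threshold. C3 turned to −0.0082 with quantile normalization and lay between −0.016 and 0.052 with 1 library left out. The same range was −0.064 to 0.044 for Stat3, −0.11 to 0.40 for Serping1 (highest without LPS replicate 2, lowest without LPS replicate 3) and −0.55 to 0.16 for Cfi, the latter without LPS replicate 2. Cd55 went from 0.78 to 0.16 with a pseudocount of 1, 1.81 with 0.01 and 1.65 with voom, and Cfb from −0.39 to −0.062, −0.93 and −0.95. Same-numbered libraries of the 2 groups did not deviate together (r of −0.016, −0.004 and −0.043), and the replicate block called no member. Spread particular to single libraries could hide a shared culture, so these values do not tell whether the numbers mark a pairing. Cfb and Cd55 had at most 12 fragments in a library, which limits what their fold changes can show. For Cfb, the counting of fragments shared with Gm20547 is also not known.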

Other observations

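Acute phase genes, which like complement are raised in inflammation, were listed beside the complement genes. Of 11 genes, 8 were tested and 2 passed in limma, both higher in the LPSKD libraries (1.57% of all genes tested were called higher), with a median log2 fold change of 0.12 over the list. Lcn2, an iron-siderophore binding protein released by injured tubules, rose by 0.47 on the log2 scale (limma, adjusted p = 0.000155), with a mean of 719.3 ± 19.0 FPKM in the LPS and 998.8 ± 11.7 in the LPSKD libraries (SD, n = 3 each). Cp, the copper carrier ceruloplasmin, rose by 0.19 (limma, adjusted p = 0.0400), with 202.9 ± 8.93 against 231.9 ± 3.67 FPKM. Hp and Saa2 (log2 fold changes −0.17 and 0.04, not past the threshold) peaked in LPS replicate 2, with 58.0 and 39.7 FPKM, the library in which the hepatocyte markers were also highest.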
